A study of Mus musculus with 4 samples.

Results

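The 6 genes described here encode proteins of pulmonary surfactant and of the alveolar type 2 cell that makes it: the surfactant proteins Sftpa1, Sftpb, Sftpc and Sftpd, the aspartic protease Napsa and the lipid transporter Abca3. They were chosen by name, and all 6 were among the 17746 gene symbols of the authors' table. Their RNA was measured in cells sorted from lung tumours of Rb1 fl/fl; Trp53 fl/fl mice, which model small cell lung cancer and also carried the knocked-in autophagy reporter GFP-LC3-RFP-LC3ΔG. Live cells that stained for EpCAM, an adhesion protein of epithelium, and showed RFP were separated into GFP-negative and GFP-positive cells, with 2 libraries of each, so the floxed alleles, the reporter and both of these gates are common to the groups and only the GFP gate differs. The sources used here give no age of the mice and no Cre driver, and do not tell whether replicate libraries stem from different mice, so p-values measure only the spread between these libraries, which may be technical. High autophagic flux is assigned to GFP-positive samples by their titles but to GFP-negative cells by the design text, so the groups are named by GFP alone and no direction is drawn for flux.

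Surfactant is the film of lipid and protein that lowers surface tension in the alveoli. Alveolar type 2 cells, which carry EpCAM like other epithelium, assemble it in lamellar bodies, where Abca3 loads phospholipid and proteases including Napsa process the hydrophobic proteins SP-B (Sftpb) and SP-C (Sftpc). The hydrophilic proteins SP-A (Sftpa1) and SP-D (Sftpd) are collectins, which bind microbes and take part in innate defence. The transcription factor Nkx2-1 is a known activator of surfactant genes, and alveolar macrophages take up and degrade spent surfactant.

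The 2 GFP-negative libraries held 73997175 and 69676412 counts and the 2 GFP-positive libraries 51994432 and 67536465. GFP-positive replicate 1 stood apart from the rest, with counts for 6063 symbols against 15710 to 17617 in the others, and 64.4% of the 16301 tested genes had 0 counts there. Neuroendocrine markers of the labelled tumour cell type were present in every library, with a summed level of 5449 and 3413 CPM in GFP-negative and 3951 and 1710 CPM in GFP-positive libraries, although 4 of the 14 were at 0 in GFP-positive replicate 1. Levels are in CPM, the counts scaled by TMM-adjusted library size, with replicate 1 before replicate 2 within each group. A count of 0 allows up to 0.0264 and 0.0451 CPM in GFP-negative replicates and 0.080 and 0.0471 CPM in GFP-positive replicates, taking 3 counts as the limit and covering counting error only.

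The proximal promoters of Sftpa1 and Sftpb are shown here, because the lung factor Nkx2-1 is known to act through such sequences. The RefSeq promoter table (GRCm38.p6) held 3 of the 6 genes. The windows of Sftpa1 and of the third gene, Abca3, both run into an annotated transcript. That of Sftpa1 is cut before it and printed. That of Abca3, of which 177 bases lie before the transcript, is not printed. Capitals mark matches, on either strand, to CTCAAG, a form of the Nkx2-1 core, to TGTTTNC, a forkhead core, or to TATAAA, the TATA box. The 244 bases upstream of Sftpa1 lie at chr14:41131538-41131781 and the 250 bases upstream of Sftpb at chr6:72304360-72304609, both on the plus strand.
Sftpa1: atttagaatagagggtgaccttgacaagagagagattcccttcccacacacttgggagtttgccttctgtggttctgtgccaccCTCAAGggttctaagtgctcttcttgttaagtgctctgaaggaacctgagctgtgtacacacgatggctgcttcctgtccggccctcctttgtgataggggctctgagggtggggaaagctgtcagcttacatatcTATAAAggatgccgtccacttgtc
Sftpb: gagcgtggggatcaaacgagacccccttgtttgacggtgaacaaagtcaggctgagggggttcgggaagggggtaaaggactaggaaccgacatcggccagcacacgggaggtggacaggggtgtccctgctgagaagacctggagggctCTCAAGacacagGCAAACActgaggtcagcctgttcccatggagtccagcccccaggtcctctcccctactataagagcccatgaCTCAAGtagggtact

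Sftpb held 2 matches to CTCAAG, which start 100 and 15 bases before its RefSeq start, and 1 to TGTTTNC on the minus strand at 88 bases. Sftpa1 held 1 match to CTCAAG at 166 bases and 1 to TATAAA at 30 bases before the RefSeq start of the promoter table, 41131788. The GENCODE start of Sftpa1, 41131782, lies inside that window, and the printed sequence ends before it, with the same matches 160 and 24 bases upstream. Over the 250 bases upstream of all 32851 promoters in the table, 13.3% held CTCAAG, 17.8% TGTTTNC and 12.4% TATAAA, and the Abca3 window held none of them. No marked matches overlapped each other. A match describes these letters and is not a measured binding site.

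Sftpc was the most abundant of the 6 genes in every library, and the libraries differed most within the GFP-negative group. It stood at 82.4 and 2276 CPM in GFP-negative libraries, against 147 and 192 CPM in GFP-positive libraries. GFP-negative replicate 2 was thus far above the other 3 libraries and GFP-negative replicate 1 was the lowest, so the groups overlapped. The level in GFP-negative replicate 2 was 27.6 times that in replicate 1, or 17.2 times by library totals, while the mean of the GFP-negative group was 6.97 times that of the GFP-positive group. The log2 change was 2.80 ± 1.44 (SE, 2 libraries in each group, adjusted p = 1.0 by edgeR), but -0.996 once GFP-negative replicate 2 was left out. Upper quartile scaling of all 4 libraries also turned its direction (-2.83), and limma-voom gave 0.39. The place of GFP-negative replicate 1 depends on the scaling: scaled by the plain library total it stood at 126 CPM, against 106 CPM in GFP-positive replicate 1. Sftpc, on chromosome 14 (mm10) from 70520949 to 70524081 on the minus strand, was the only one of the 6 with counts in all 4 libraries.

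**Figure D1:**
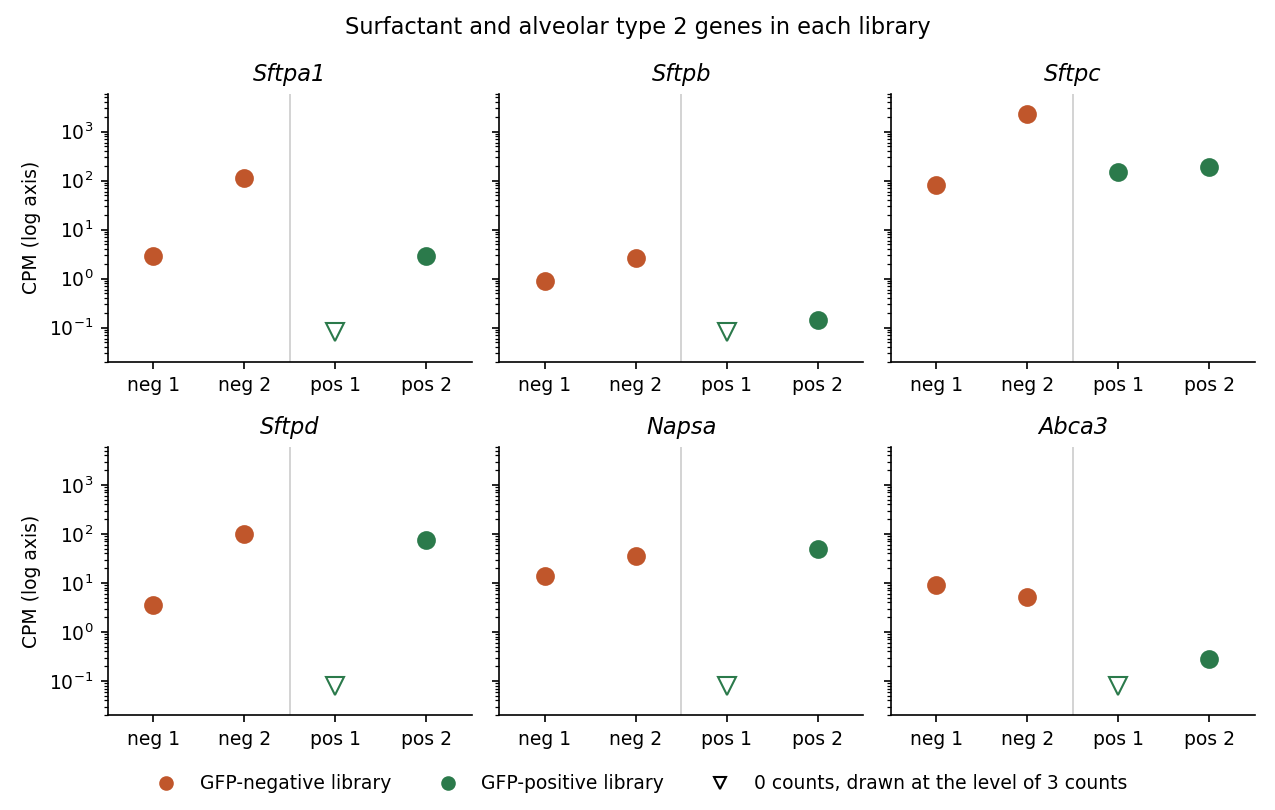
Level of each of the 6 genes in CPM on a log axis (y) in the 4 libraries (x), GFP-negative (neg) left and GFP-positive (pos) right in each panel; open triangles mark 0 counts, drawn at the level of 3 counts. Only Sftpc has counts in GFP-positive replicate 1, and Sftpa1, Sftpb, Sftpc and Sftpd are highest in GFP-negative replicate 2.

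Sftpb encodes the other hydrophobic protein, without which lamellar bodies do not form properly, and it was low throughout. Its levels were 0.916 and 2.64 CPM in GFP-negative libraries, from 104 and 176 counts, against 0 and 0.141 CPM in GFP-positive libraries, from 0 and 9 counts. The counting interval of the 9 counts (exact Poisson, 95%) ran from 4.12 to 17.1 counts, or 0.0645 to 0.268 CPM. Both GFP-negative libraries lay above both GFP-positive libraries. The log2 change of Sftpb was 4.60 ± 4.06 (edgeR adjusted p = 1.0), an SE nearly as large as the change. Sftpb lies on chromosome 6 from 72304610 to 72314371.

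The collectin genes Sftpa1 and Sftpd had similar levels in the GFP-negative libraries and unlike levels in GFP-positive replicate 2. Sftpa1 had 2.94 and 116 CPM in GFP-negative libraries, against 0 and 2.84 CPM in GFP-positive libraries. GFP-negative replicate 2 set it apart, and GFP-negative replicate 1 and GFP-positive replicate 2 differed by 1.04 times, within their exact Poisson intervals of 2.63 to 3.27 and 2.44 to 3.28 CPM. Sftpd had 3.54 and 97.5 CPM in GFP-negative libraries, against 0 and 73.9 CPM in GFP-positive libraries. Its replicates 2 were thus close and both replicates 1 were low, and the groups overlapped. The log2 changes were 5.38 ± 4.78 for Sftpa1 and 0.45 ± 3.61 for Sftpd, and without GFP-negative replicate 2 they were 1.04 and -3.40. Without GFP-positive replicate 1 the log2 change of Sftpd was -0.55. These 2 genes are neighbours on chromosome 14, Sftpa1 from 41131782 to 41136452 on the plus strand and Sftpd from 41172214 to 41185149 on the minus strand, with 35.8 kb between them.

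Napsa, the gene of the protease napsin A, had 13.7 and 35.0 CPM in GFP-negative libraries, against 0 and 49.5 CPM in GFP-positive libraries. Its highest and its lowest library were thus both GFP-positive, and its log2 change was -0.03 ± 4.11. A second gene model, Gm15396, overlaps Napsa on the opposite strand on chromosome 7 (Napsa from 44572380 to 44586862); the described kit keeps no strand information, so reads from the overlap cannot be told apart. Abca3 had 9.18 and 5.08 CPM in GFP-negative libraries, against 0 and 0.282 CPM in GFP-positive libraries, from 0 and 18 counts. Abca3 was the only one of the 6 that was highest in GFP-negative replicate 1, and its groups did not overlap. The log2 change of Abca3 was 5.63 ± 5.32, and 4.64 ± 3.51 without GFP-positive replicate 1. It lies on chromosome 17 from 24351950 to 24410201, and the antisense gene D330041H03Rik overlaps its end, at 1.7 and 2.01 CPM in GFP-negative and 0 and 1.13 CPM in GFP-positive libraries.

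None of the 6 genes passed the test. The quasi-likelihood test of edgeR, adjusted over all genes by Benjamini-Hochberg, called 0 of 6 (adjusted p = 1.0 for each), where it called 16 of 16301 tested genes (0.0982%), 0.00613% as higher and 0.092% as lower in the GFP-negative group. At an unadjusted p under 0.05 there were 0 of the 6, against 3.1% of all tested genes, and the smallest was 0.0516 for Sftpc. DESeq2's Wald test and limma-voom also called 0, with an unadjusted DESeq2 p under 0.05 for Abca3 alone (0.034, adjusted p = 0.843), and DESeq2 gave no adjusted p for Sftpb. An exact permutation test of 2 libraries against 2 cannot go below a two-sided p of 0.333. Both GFP-negative libraries lay above both GFP-positive ones, with no overlap, for Sftpa1, Sftpb and Abca3, 3 of 6 genes, against 25.2% of all tested genes in that direction and 31.8% in either. For each of these 3 genes GFP-positive replicate 1 was at 0. Counts of 0 there with counts in the other 3 libraries were found for 5 of the 6 genes, against 50.6% of all tested genes. The fitted change was above 0 for 5 of the 6 genes, with a median log2 change of 3.70, while 68.1% of all tested genes were above 0, with a median of 0.91. Between these libraries, fewer cells of a type and less RNA per cell cannot be told apart.

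**Figure D2:**
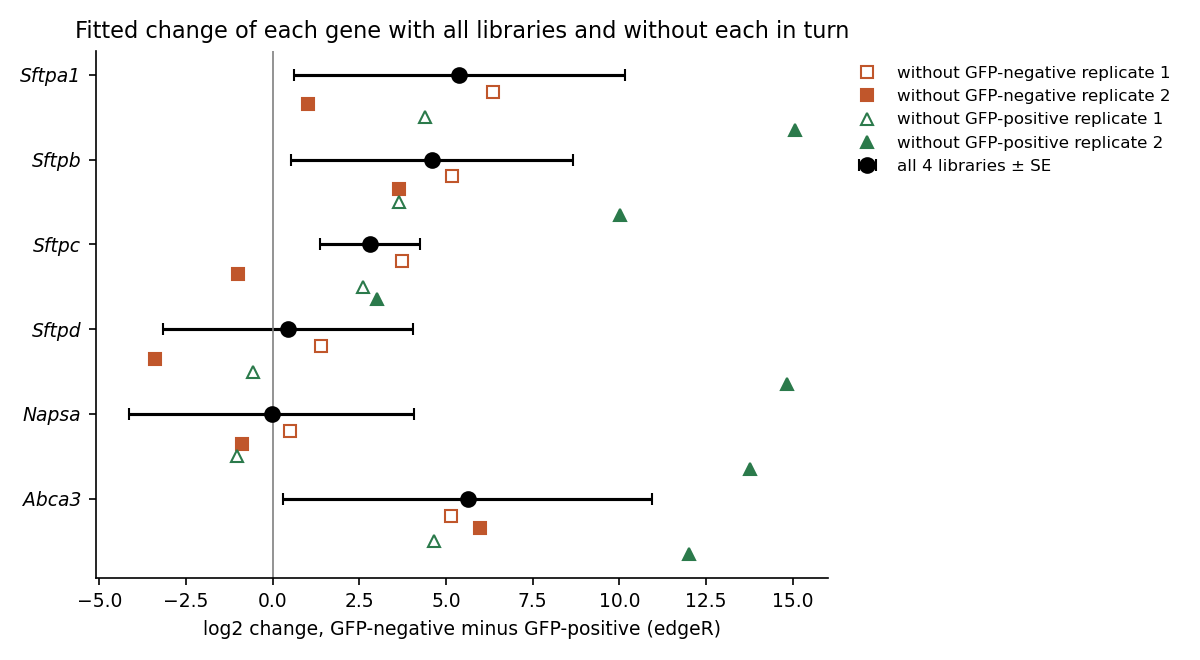
Fitted log2 change of each gene, GFP-negative minus GFP-positive (x), with all 4 libraries (black points, bars are SE) and without each library in turn (squares and triangles). Sftpc falls below 0 without GFP-negative replicate 2, and Sftpd without that library or without GFP-positive replicate 1; the points without GFP-positive replicate 2 rest on a GFP-positive group at 0 counts for every gene except Sftpc.

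Without GFP-positive replicate 2, edgeR called 4 of the 6 genes higher in the GFP-negative group, Sftpa1, Sftpd, Napsa and Abca3 (adjusted p = 0.0111, 0.0111, 0.0114 and 0.0344). That fit called 45.2% of all tested genes, and 42.7% as higher, and its only GFP-positive library was the one with counts for 6063 symbols. All 4 genes are at 0 counts in it, so their fitted changes depend on the prior count of the model and are no measure of a fold.

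Compared per length, the order of the genes was led by Sftpc and varied below it. The authors' FPKM of Sftpc were 108 and 1830 in GFP-negative and 91.6 and 150 in GFP-positive libraries. By FPKM it ranked 548 and 30 of the 17746 symbols in GFP-negative and 782 and 429 in GFP-positive libraries. Its lowest FPKM, 91.6, lay above the highest of the other 5 genes, 33.7 for Sftpa1. The other 5 ran from listed at 0 in GFP-positive replicate 1 to 33.7 FPKM for Sftpa1, 33.5 for Sftpd, 15.1 for Napsa, 1.32 for Abca3 and 1.11 for Sftpb. Their ranges over the 4 libraries thus overlapped, as each reached 0 in GFP-positive replicate 1. In the remaining libraries Napsa and Abca3 did not overlap. The FPKM of Napsa was 5.25 and 24.3 times that of Abca3 in GFP-negative libraries and 631 times in GFP-positive replicate 2. The other neighbours in that order did overlap in those libraries. Napsa came after Sftpc in GFP-negative replicate 1, Sftpa1 in GFP-negative replicate 2 and Sftpd in GFP-positive replicate 2, while Sftpb and Abca3 were the lowest 2 in all 3 of these libraries.

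**Figure D3:**
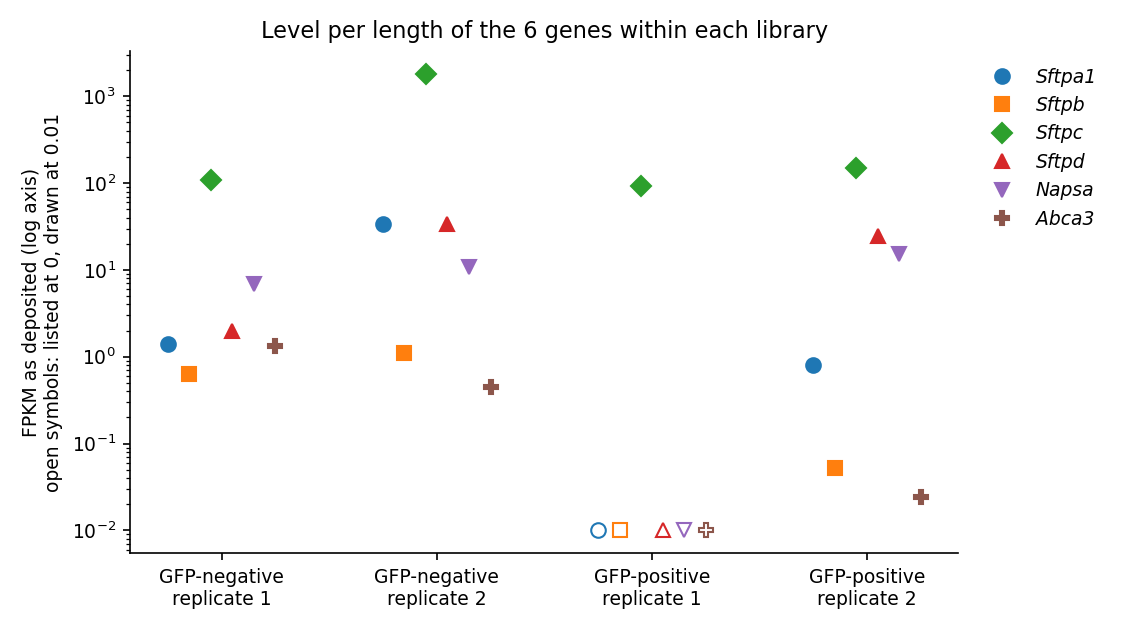
FPKM of the 6 genes as deposited, on a log axis (y), within each library (x), with GFP-negative libraries left; open symbols are genes listed at 0, drawn at 0.01. Sftpc leads in every library, at 108 and 1830 FPKM in GFP-negative and 91.6 and 150 FPKM in GFP-positive libraries, and the order of the others changes between libraries.

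Ratios within a library, which do not depend on how libraries are scaled, differed between pairs of the genes. The FPKM of Sftpc was 54.4 and 54.6 times that of Sftpd in the GFP-negative libraries, and 6.07 times in GFP-positive replicate 2. Against Sftpa1 it was 77.7 and 54.3 times in the GFP-negative libraries and 188 times in GFP-positive replicate 2. Sftpc, Sftpa1 and Sftpd thus kept a similar proportion between the GFP-negative libraries while their levels differed 27.6, 39.4 and 27.5 times in CPM, or 17.2, 24.5 and 17.2 times by library totals. Sftpb and Napsa differed only 2.88 and 2.56 times between the same libraries, replicate 2 over replicate 1, and Abca3 0.553 times; by library totals these were 1.80, 1.60 and 0.344 times. Sftpc over Sftpb was 172 and 1650 in GFP-negative libraries and 2910 in GFP-positive replicate 2, and Sftpc over Abca3 was 81.6, 4070 and 6300 in the same order. In GFP-positive replicate 1, Sftpc had 5506 counts and the other 5 genes none.

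The genes whose profile over the 4 libraries was nearest to each of the 6 were sought by the Euclidean distance between log2(CPM + 1) profiles centred on their own mean, among 10194 genes at a mean of 5 CPM or more. With 4 libraries this describes the pattern and tests nothing. Napsa had the closest matches, at distances of 0.135 to 0.18: Tmem35b, Kat5, the gene of a histone acetyltransferase, and Gm49909. Sftpd was nearest to Clec4a2, a C-type lectin of myeloid cells, Tmem212, which is also on the list of ciliated cell markers, and Gm42742 (0.409 to 0.504), and Abca3 to Fancm, of DNA repair, Upk3a and Ephb2 (0.483 to 0.534). Sftpc was nearest to the histone gene H2ac4 (0.584), Ighv1-9 and Gm10146, and Sftpa1 to the immunoglobulin segment Igkv12-41 (1.18), 8430429K09Rik and Tmsb15b2. Sftpb was nearest to Guk1, Dnttip2 and Rps6-ps4 (0.354 to 0.421), which lie at 16 to 296 CPM, a likeness helped by the pseudocount, which flattens a gene near 1 CPM. With a pseudocount of 5 the 3 nearest genes of Napsa, 2 of those of Sftpd and 1 of those of Abca3 were found again, and 0 for Sftpa1, Sftpb and Sftpc. Among the 6 themselves, Abca3 and Sftpb lay nearest to each other (1.91), then Sftpd and Napsa (2.29), then Sftpa1 and Sftpc (2.36), and Sftpd and Abca3 lay farthest apart (5.74).

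Genes beside Sftpc on the chromosome did not share its pattern. Bmp1, a protease of collagen maturation that ends 0.714 kb from Sftpc on the same strand, had 30.4 and 15 CPM in GFP-negative libraries, against 0 and 4.33 CPM in GFP-positive libraries. Lgi3, 6.6 kb to the other side, had 53.1 and 4.69 CPM in GFP-negative libraries, with 0 counts in both GFP-positive libraries. Both were thus highest in GFP-negative replicate 1, whereas Sftpc was highest in GFP-negative replicate 2.

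The other genes of the alveolar type 2 cell gave no common direction. Of 20 listed, 15 were in the table and tested, 0 were called in either direction, and 10 had a fitted change above 0, with a median log2 change of 0.83 against 0.91 for all tested genes. Slc34a2, the phosphate transporter of these cells, is on the list but was not among the gene symbols of the authors' table. Lamp3, a lamellar body membrane protein, was under 1 CPM everywhere, at 0.256 and 0.0901 CPM in GFP-negative libraries (29 and 6 counts) and 0.533 and 0.0471 CPM in GFP-positive libraries (20 and 3 counts). Etv5, a transcription factor that maintains these cells, had 17.2 and 0.511 CPM in GFP-negative libraries, against 0 and 6.90 CPM in GFP-positive libraries. Lpcat1, which makes the main surfactant phosphatidylcholine, had 23.2 and 0.12 CPM in GFP-negative libraries, against 0 and 14.6 CPM in GFP-positive libraries. Etv5 and Lpcat1 were thus low in GFP-negative replicate 2, where Sftpc was highest.

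3 secreted products on that list were, like Sftpc, highest in GFP-negative replicate 2. Lyz1, the lysozyme of this cell type, had 7.15 and 69.8 CPM in GFP-negative libraries, against 2.83 and 40.4 CPM in GFP-positive libraries, though it shares sequence with Lyz2 and its counts are uncertain. Chil1, a chitinase-like protein, had 3.47 and 37.3 CPM in GFP-negative libraries, against 0 and 5.10 CPM in GFP-positive libraries. Cxcl15, a chemokine of the lung epithelium, had 1.15 and 7.87 CPM in GFP-negative libraries, against 0 and 1.51 CPM in GFP-positive libraries. Bex2, the second most abundant gene of the list, had 190 and 967 CPM in GFP-negative libraries, against 126 and 420 CPM in GFP-positive libraries. In all, 5 of the 15 list genes were highest in GFP-negative replicate 2, where 26.8% of all tested genes were; of the 6 surfactant and type 2 genes it was 4. In GFP-positive replicate 1, 9 of the 15 had 0 counts.

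Of the genes for processing and secretion of surfactant, 0 of 16 tested were called, 10 had a fitted change above 0 and the median log2 change was 1.18. The 3 most abundant were proteins of lysosomes and related organelles. Ctsh, a protease known to take part in SP-B processing, had 32.6 and 470 CPM in GFP-negative libraries, against 2736 and 1364 CPM in GFP-positive libraries, and a log2 change of -3.03 ± 1.20 (edgeR adjusted p = 1.0). Ctsc, a cathepsin, had 94.4 and 1689 CPM in GFP-negative libraries, against 4946 and 2392 CPM in GFP-positive libraries. Cd63, a membrane protein of late endosomes, had 271 and 1263 CPM in GFP-negative libraries, against 3526 and 2329 CPM in GFP-positive libraries. The groups did not overlap for these 3 genes, with GFP-negative lower, and all 3 are also expressed in macrophages. Over the list, 4 of 16 genes did not overlap with GFP-negative lower and 4 with GFP-negative higher, against 6.63% and 25.2% of all tested genes.

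Surfactant lipid synthesis likewise had 0 of 20 genes called, 14 with a fitted change above 0 and a median log2 change of 0.24. The groups did not overlap for 5 genes with GFP-negative higher and 2 with GFP-negative lower, against 25.2% and 6.63% of all tested genes. The 3 most abundant genes, given next, all had a fitted change below 0, unlike most of the list. Plin2, a lipid droplet coat protein, had 38.9 and 518 CPM in GFP-negative libraries, against 2863 and 1096 CPM in GFP-positive libraries. Fabp5, a fatty acid binding protein, had 207 and 200 CPM in GFP-negative libraries, against 441 and 509 CPM in GFP-positive libraries. Elovl1, which lengthens fatty acids, had 58.3 and 246 CPM in GFP-negative libraries, against 688 and 188 CPM in GFP-positive libraries, and its groups overlapped.

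The transcription factors of lung epithelium were highest in GFP-negative replicate 1 for 8 of 10 tested genes, where 36.3% of all tested genes were. Nkx2-1 had 21.5 and 3.5 CPM in GFP-negative libraries, against 0 and 8.86 CPM in GFP-positive libraries. Foxa1, a forkhead factor, had 219 and 8.29 CPM in GFP-negative libraries, against 0 and 11.8 CPM in GFP-positive libraries. Foxa2, another, had 45.6 and 13.5 CPM in GFP-negative libraries, against 0 and 40.8 CPM in GFP-positive libraries. Elf3 and Klf5, at 215 and 12.1 and at 89.9 and 7.48 CPM in GFP-negative libraries, showed the same order, with 0 and 20.6 CPM for Elf3 and 0.133 and 26.9 CPM for Klf5 in GFP-positive libraries. None of the 10 was called, and the median log2 change was 1.39. The library with the highest Sftpc, GFP-negative replicate 2, thus had low levels of these 5 factors. Nkx2-1 is also expressed in pulmonary neuroendocrine cells, and their part in its level was not tested. GFP-positive replicate 1 had 0 Nkx2-1 at 3951 CPM of neuroendocrine markers, of which Calca made 3073 CPM. GFP-positive replicate 2 had 8.86 CPM of Nkx2-1 at 1710 CPM of these markers. Among them, Chga had the library order of Nkx2-1 and Calca did not. Chga was at 494 and 94.1 CPM in GFP-negative and 0 and 156 CPM in GFP-positive libraries.

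Markers of other lung epithelial cells differed between the same libraries, and 0 of the 11 club, 9 ciliated and 13 alveolar type 1 markers tested were called. The 11 club cell markers in the table summed to 644 and 11230 CPM in GFP-negative and 5610 and 7379 CPM in GFP-positive libraries, and 10 of them were higher in GFP-negative replicate 2 than in replicate 1, as were 44.5% of all tested genes. Scgb1a1, the defining secretory protein of club cells, had 301 and 529 CPM in GFP-negative libraries, against 2884 and 1264 CPM in GFP-positive libraries, and Bpifa1, a secreted airway defence protein, 17.8 and 5332 against 0.107 and 2845 CPM. The 9 ciliated cell markers summed to 87.0 and 674 CPM in GFP-negative and 127 and 420 CPM in GFP-positive libraries, 8 of them higher in GFP-negative replicate 2 than in replicate 1; Foxj1, which defines the type, was at 1.15 and 0 against 0 and 0.204 CPM. Among 13 alveolar type 1 markers, which summed to 464 and 206 CPM in GFP-negative and 790 and 101 CPM in GFP-positive libraries, 5 were higher in GFP-negative replicate 2 than in replicate 1. Ager, which defines that type, had 3.82 and 95.7 CPM in GFP-negative libraries, against 0 and 16.5 CPM in GFP-positive libraries. Sftpc, Sftpa1 and Sftpd were thus not alone in being higher in GFP-negative replicate 2 than in replicate 1. Of other lists, 10 of 13 alveolar macrophage markers, 12 of 16 uptake and clearance genes, 5 of 6 erythroid and 5 of 7 endothelial markers had that order too. The part of these cells in the levels of the 6 genes was not tested.

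**Figure D4:**
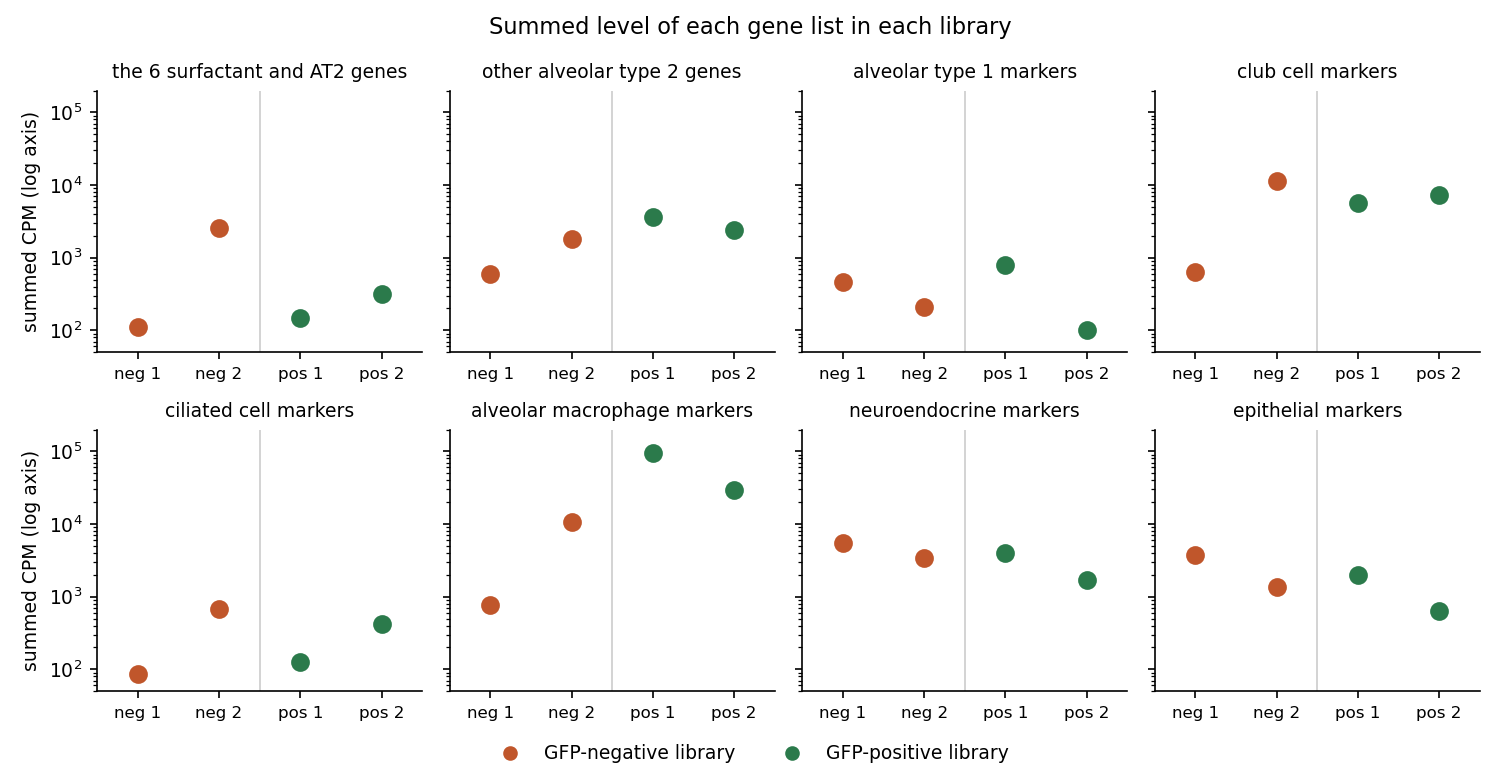
Summed CPM of the 6 surfactant and alveolar type 2 (AT2) genes and of 7 lists of other genes, on a log axis (y), in the 4 libraries (x), GFP-negative left. The 6 genes, club and ciliated markers are highest in GFP-negative replicate 2 (2533, 11230 and 674 CPM), whereas alveolar macrophage markers are higher in both GFP-positive libraries.

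Between the groups, alveolar macrophage markers were lower in the GFP-negative libraries with no overlap for 8 of 13, against 6.63% of all tested genes in that direction. The rest overlapped, at 0 to 0.267 CPM in GFP-positive replicate 1. All 13 had a fitted change below 0, and 3 were called lower in the GFP-negative group, Chil3, Lyz2 and Ctsk, where 0.092% of all tested genes were called lower. These calls were not kept without GFP-positive replicate 1, where the log2 changes were -3.24 for Chil3, -2.12 for Lyz2 and -3.63 for Ctsk. That fit, with 1 GFP-positive library, called almost no gene of any kind. Without GFP-positive replicate 2 the log2 changes were -5.95, -3.25 and -8.61 in the same order. With all libraries, DESeq2's Wald test, limma-voom and upper quartile scaling called 0 of the 3. EdgeR with DESeq2 size factors, library totals or the replicate block called all 3. Of the 3, limma on FPKM called Chil3 and Lyz2, and edgeR among genes with counts in all libraries called Ctsk. Chil3, a chitinase-like protein, had 186 and 1207 CPM in GFP-negative libraries, against 42910 and 6561 CPM in GFP-positive libraries. Its log2 change was -5.15 ± 0.54 (adjusted p = 1.8e-17 by edgeR). The 13 markers summed to 764 and 10700 CPM in GFP-negative and 95230 and 29230 CPM in GFP-positive libraries, with 1 and 1 of the 13 against 2 and 0 at 0 counts. Most of the sum in GFP-positive replicate 1 was Lyz2 (43154 CPM) and Chil3 (42910 CPM). Genes of surfactant uptake and breakdown, many of them macrophage genes, had 0 of 16 called and 3 with a fitted change above 0, with a median log2 change of -2.33. Csf1r, the receptor of a macrophage growth factor, had 43.6 and 19.3 CPM in GFP-negative libraries, against 1852 and 260 CPM in GFP-positive libraries. Lipa, the lysosomal acid lipase, had 16.9 and 21.2 CPM in GFP-negative libraries, against 1034 and 168 CPM in GFP-positive libraries. Npc2, a lysosomal sterol carrier, overlapped between the groups, with 74.7 and 813 CPM in GFP-negative and 244 and 994 CPM in GFP-positive libraries.

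Markers of cells outside the epithelium were present too. Of these lists, 2 of 6 erythroid and 3 of 4 hepatocyte markers tested were called lower in the GFP-negative group (0.092% of all tested genes), and 0 of 7 endothelial, 7 fibroblast and 10 lymphocyte markers were called. Without GFP-positive replicate 1 these calls were not kept, in a fit that called almost no gene of any kind. The median log2 change there was -1.38 for hepatocyte markers, against -14.5 with that library, and -2.11 for erythroid markers, against -4.14. Without GFP-positive replicate 2 the hepatocyte calls alone were left. Their summed CPM in GFP-negative and GFP-positive libraries were 126 and 112 against 396 and 26.5 for 7 endothelial markers, and 99.25 and 183 against 610 and 399.5 for the 8 fibroblast markers in the table. For 10 lymphocyte markers the sums were 909 and 2051 against 0.213 and 1456, and for 6 erythroid markers 1573 and 5395 against 45560 and 14340. Hepatocyte markers, with 4 of 8 in the table, summed to 23.5 and 319 CPM in GFP-negative and 27260 and 158 CPM in GFP-positive libraries. Of 10 epithelial and 14 neuroendocrine markers 0 were called, and epithelial markers were present in every library, Epcam among them at 255 and 88.8 CPM in GFP-negative and 94.0 and 65.9 CPM in GFP-positive libraries. By its sum, the lymphocyte list alone among these was highest in GFP-negative replicate 2. The endothelial sum in GFP-positive replicate 1 was almost all Pecam1 (396 CPM), with 5 of the 7 markers at 0 there, and gene by gene 5 of the 7 were highest in GFP-negative replicate 2.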

How the data were processed

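Per the file headers, the authors deposited 1 table of whole-number counts per gene symbol and library, with length-scaled FPKM beside them. Their tools were cutadapt 1.9, HISAT2 2.2.1, StringTie 2.1.6, DESeq2 and edgeR, and the build was mm10, per the submitters' processing notes. The counter, the annotation and the handling of shared reads are not given in these sources. Per the labels' protocols, cDNA was made from very little RNA by oligo(dT) priming and template switching (SMARTer) and amplified by PCR without molecular identifiers, so counting intervals understate the error.

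Libraries held 51994432 to 73997175 counts. Genes were filtered with filterByExpr (minimum count 10, leaving 16301), scaled by TMM and tested in R 4.3.3 with edgeR 4.0.16 (glmQLFit, glmQLFTest, group as the only term) on the whole table; adjusted p-values (Benjamini-Hochberg) under 0.05 were called. The SE was taken as the log2 change, without its sign, over the root of F. It rests on a dispersion that edgeR shares in part over genes. Alternatives used DESeq2 1.42.0, limma 3.58.1, other scalings and filters, a replicate block and leaving out each library. Scripts were tested on simulated counts with less spread between libraries than these data, which checks the code and not the power here. Positions are from GENCODE M21 (mm10), and promoters from RefSeq (GRCm38.p6).

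The members and lists were chosen with earlier results of these data known. Genes named were the 6 members, the 3 nearest genes of each, and called genes and the 3 most abundant of a list. Fixed genes were named too (Epcam, Nkx2-1, Lamp3, Slc34a2, Etv5, Ager, Scgb1a1, Chil3, Lyz2). Not every gene the rule allows is described. Lpcat1, Lyz1, Chil1, Cxcl15, Foxa2, Foxj1, Chga and the chromosomal neighbours were named after their values were seen.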

Additional observations from a re-analysis of the deposited data

How the results depend on the processing

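Of 91 refits of the 6 genes' log2 changes, 15 changed sign. Leaving out each library in turn gave ranges of 1.04 to 15.07 for Sftpa1, 3.64 to 10.01 for Sftpb, -0.996 to 3.75 for Sftpc, -3.40 to 14.84 for Sftpd, -1.03 to 13.78 for Napsa and 4.64 to 12.01 for Abca3, and the only calls among the 91 came without GFP-positive replicate 2. Sftpc was at -2.83 under upper quartile scaling; the cause was not tested. Napsa, at -0.03, turned positive under DESeq2 size factors (0.12), upper quartile (0.026), library totals (0.22), DESeq2's Wald test (0.13), limma-voom (4.97) and limma on FPKM with pseudocounts of 1, 0.1 and 5 (1.28, 2.84 and 0.46). Only Sftpc could be fitted among genes with counts in all 4 libraries (2.80).

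Replicate numbers are not said to mark animals, so the main fit had no replicate block. Deviations of same-numbered libraries correlated at 0.0333 over genes. With 2 libraries per group and 64.4% of tested genes at 0 counts in GFP-positive replicate 1, this cannot tell whether they are paired. With the replicate block edgeR called 21 genes, 0 of them higher, Napsa was at 5.16 and 0 of the 6 genes were called.

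Over all genes, against 16 calls (1 higher, 15 lower), upper quartile scaling gave 0 (0 higher, 0 lower, 1150 at an unadjusted p under 0.05), DESeq2's Wald test 61 (48 higher), limma-voom 4 (0 higher, 4 lower), limma on FPKM with a pseudocount of 0.1 42 (8 higher, 34 lower), genes with counts in all 4 libraries 5 (4 lower), library totals 3 higher, and limma on FPKM with pseudocounts of 1 and 5 4 higher each, the second with 7 lower. Leaving out a library gave 1 to 7601 calls (0 to 7182 higher, 1 to 419 lower). The median over all tested genes, a log2 change of 0.91, became 1.12 with size factors of DESeq2, 0.43 with the upper quartile and 1.33 with library totals; 3.92 with the replicate block and 3.81 with limma-voom; -0.06 among genes with counts in all 4 libraries; and 0.29 to 9.95 leaving out a library. Sftpb and Abca3 rest on only 9 and 18 counts in GFP-positive replicate 2, a library of 67536465 counts. Why they are so few was not tested.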
